A study of Homo sapiens with 15 samples.

Results

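The genes described here are 10 secreted or membrane-bound blood-forming growth factors that stromal or kidney cells can make: THPO, EPO, FLT3LG, IL11, KITLG, CSF1, LIF, CLCF1, JAG1 and ANGPT1. They were picked by name, with earlier results of these data known, from the 58735 genes listed in 15 RNA-sequencing libraries of HEK293T cells, a human embryonic kidney cell line. The levels in the 5 groups were part of what led to the choice, so the differences of these 10 genes between groups are given as descriptions, without a test. Of the 10, 5 reached 0.5 FPKM (fragments per kilobase of exon, scaled to library size, a level per length of transcript) in at least 3 libraries, as did 16175 of all genes. KITLG and CSF1 did so in 15 libraries, JAG1 in 12, THPO in 6 and EPO in 4, and the last pair did so only through the groups in which they were high.

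The study disrupted single genes in supporting cells and asked which losses change the drug response of leukaemia cells grown beside them. The groups were 4 CRISPR knockout clones of HEK293T, RHBDD2-CKO, MLPH-CKO, MAGI2-CKO and C9orf89-CKO, and Non-target, a clone whose guide RNA has no target. All 5, Non-target included, carried the lentiCRISPRv2 vector with Cas9, had been selected with puromycin, were grown in DMEM and were isolated by limiting dilution. Each group is 1 clone sampled in 3 wells, so the spread between wells says nothing about other clones with the same guide. A library held 15517856 to 19489918 fragments on genes, and the same 3 Non-target wells served all 4 comparisons. A shift in the same direction in all 4 clones therefore cannot be told apart from a level particular to the Non-target clone.

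Blood stem and progenitor cells depend on growth factors made by the cells around them. Thrombopoietin (THPO), made mainly in the liver and kidney, drives platelet formation and stem cell maintenance, and erythropoietin (EPO), made in the kidney under low oxygen, drives red cell formation through EPOR. Stem cell factor (KITLG), FLT3 ligand and macrophage colony-stimulating factor (CSF1) act on receptor tyrosine kinases, while LIF, IL11 and CLCF1 signal through receptors that share IL6ST (gp130). JAG1 is a membrane ligand of the Notch receptors, and angiopoietin 1 (ANGPT1) is the ligand of TEK (Tie2).

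The labels were checked on the disrupted genes first. RHBDD2 was at 33.5 ± 5.50 FPKM in Non-target and 12.4 ± 1.18 in RHBDD2-CKO (SD, n = 3; log2 fold change -1.42, SE 0.14, limma adjusted p 7.56e-06), and it was at 13.8 ± 2.15 in MAGI2-CKO as well (-1.27, adjusted p 1.55e-05). CARD19, the current symbol of C9orf89, was at 6.56 ± 1.04 FPKM in Non-target and 4.32 ± 0.0421 in C9orf89-CKO (-0.58, adjusted p 0.000977), and it was lower in RHBDD2-CKO as well, at 4.79 ± 0.339 (-0.44, adjusted p 0.00489). MAGI2 was near 0 in every group, 0.115 ± 0.0108 in Non-target and 0.0680 ± 0.0195 in MAGI2-CKO, and MLPH had 0 fragments in all 15 libraries. The RHBDD2 wells of RHBDD2-CKO (11.2 to 13.5) and MAGI2-CKO (11.7 to 16.0) overlapped, so the level of RHBDD2 does not tell these labels apart. MAGI2 and MLPH were near or at 0 in Non-target too, so they do not check their labels here. A CRISPR knockout also need not lower the level of its transcript.

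The cells carried the marker genes of HEK293T. Of 9 such markers, 8 or 9 were at 0.5 FPKM or more in every library, VIM being the most abundant. Their summed level had a median of 86.6 FPKM in RHBDD2-CKO, 137 in MAGI2-CKO, 138 in Non-target, 149 in C9orf89-CKO and 194 in MLPH-CKO. In the test against Non-target, 2 of the 9 rose and 2 fell in C9orf89-CKO, 0 and 4 in RHBDD2-CKO, 3 and 4 in MAGI2-CKO, and 6 and 2 in MLPH-CKO, where 26%, 34.1%, 36.1% and 30.1% of all 16175 tested genes passed in either direction. The neurofilament gene NEFM fell by 7.73 on the log2 scale in MAGI2-CKO (adjusted p 1.02e-08) and by 4.23 in RHBDD2-CKO (adjusted p 2.38e-06). Its relative NEFL fell by 4.12 in RHBDD2-CKO (adjusted p 3.02e-11) but rose by 0.40 in MAGI2-CKO (adjusted p 0.00370) and 0.89 in MLPH-CKO (adjusted p 1.16e-05). VIM (vimentin) rose by 0.61 in MAGI2-CKO (adjusted p 0.00127) and 0.86 in MLPH-CKO (adjusted p 0.000151), and the keratin gene KRT8 rose by 1.57 in MLPH-CKO (adjusted p 2.10e-07) and fell by 0.45 in MAGI2-CKO (adjusted p 0.00357). The summed level of 10 blood cell markers was 0.378 to 0.754 FPKM with MPO at 0 in all libraries and RUNX1 the most abundant, and that of 5 liver markers was 0 to 0.499 FPKM with SERPINA1 at 0 and APOA1 the most abundant. None of these 15 passed the filter. The 10 stromal and endothelial markers summed to 3.09 to 5.87 FPKM, mostly COL1A1. Of these, 2 passed the filter: COL1A1 rose in MAGI2-CKO, MLPH-CKO and C9orf89-CKO by 0.74 to 0.93 on the log2 scale (adjusted p 0.00110, 0.00311 and 0.00739), and COL3A1 fell in all 4 clones by 1.60 to 2.59 (largest adjusted p 0.000571). The part of these shifts in the values below was not tested.

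The first replicate of each group stood apart from the other two. Chi-square tests of the fragments of 2 wells of the same group, over genes with 10 or more, gave 14.6 to 24.8 per gene where 1 well was replicate 1 and 2.40 to 6.54 where neither was. Without the replicate 1 libraries (a setting chosen after seeing the data), 37 of the 40 differences given below moved by less than the spread between wells and none that is called higher or lower below changed direction.

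**Figure D1:**
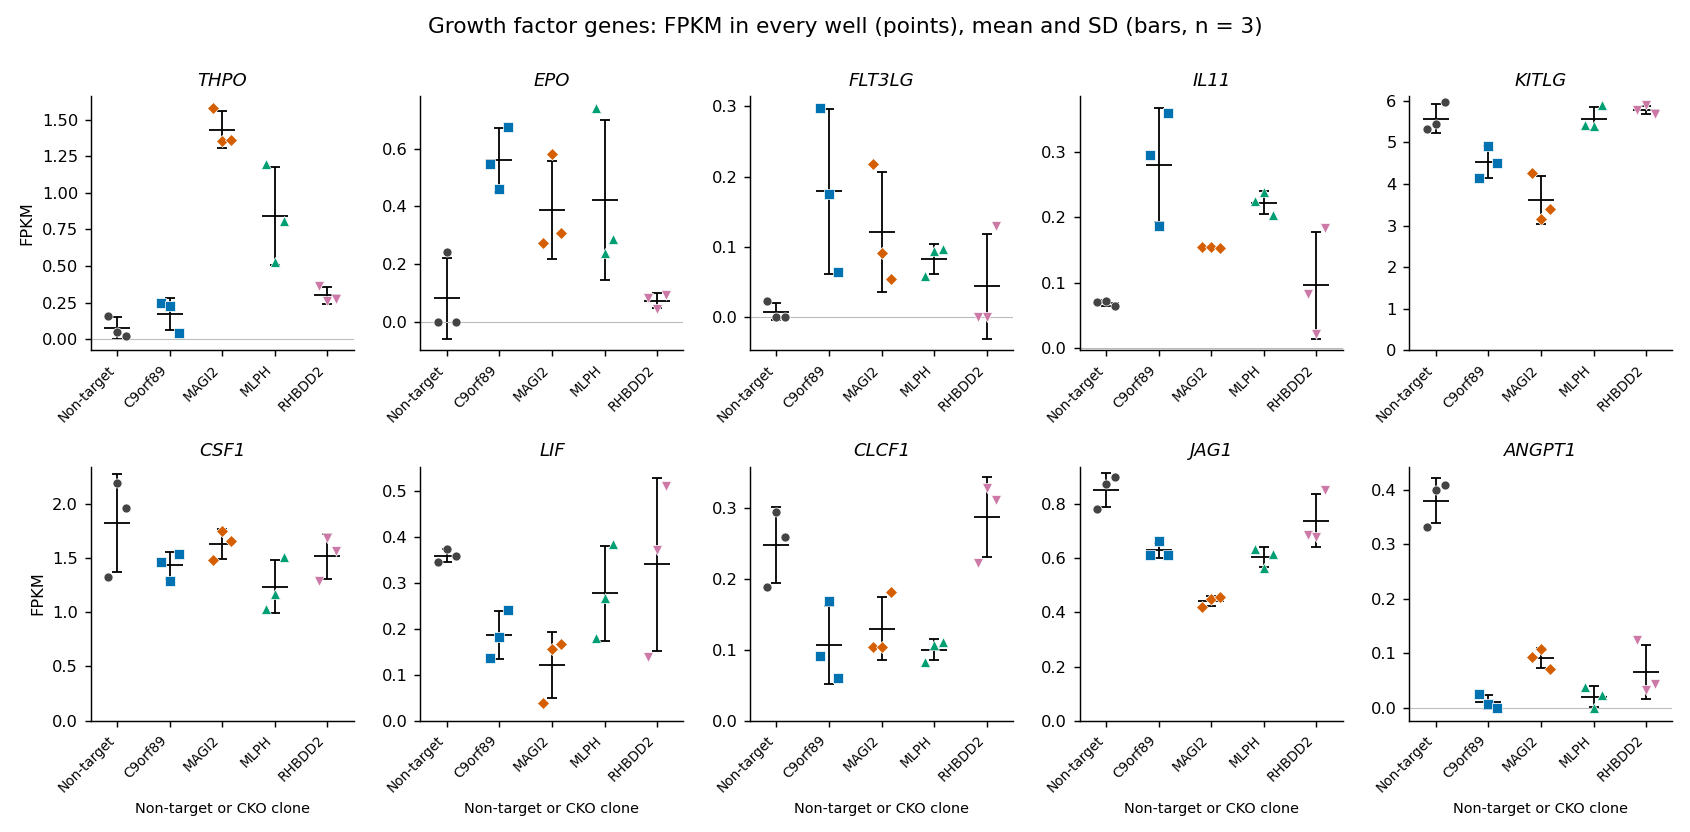
FPKM of the 10 growth factor genes in every well, with the mean and SD (bars, n = 3); each panel has its own FPKM axis. The THPO wells of MAGI2-CKO (1.35 to 1.58) lay above all others, and the ANGPT1 wells of Non-target (0.332 to 0.408) lay above those of all 4 clones.

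Start-site sequences are shown for 4 members as examples: THPO, EPO and FLT3LG, which with IL11 had the lowest means in Non-target, and KITLG, the most abundant. RefSeq (GRCh38.p14) gave windows from 250 bases before to 50 after a start site for 6 of the 10 genes, 9 windows in all. Windows of LIF, CSF1, CLCF1 and ANGPT1 were not used here, and those of IL11 and JAG1 are not printed. Of the 3 THPO and 2 FLT3LG windows, those with a GC box are printed. In the windows below, 5′ to 3′ on the strand of the gene, capitals mark matches on either strand to the GC box (GGGCGG or CCGCCC), the GATA core (AGATA or TATCT), the hypoxia-response core (ACGTG or CACGT) and the TATA box (TATAAA or TTTATA).
THPO, minus strand, chr3:184379639-184379938: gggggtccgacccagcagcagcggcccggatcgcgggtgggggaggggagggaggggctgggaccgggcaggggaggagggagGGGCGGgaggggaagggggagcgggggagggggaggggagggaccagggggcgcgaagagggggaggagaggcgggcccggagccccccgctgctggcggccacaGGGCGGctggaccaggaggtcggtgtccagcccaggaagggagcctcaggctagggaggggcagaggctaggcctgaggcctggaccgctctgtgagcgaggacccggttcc
EPO, plus strand, chr7:100720218-100720517: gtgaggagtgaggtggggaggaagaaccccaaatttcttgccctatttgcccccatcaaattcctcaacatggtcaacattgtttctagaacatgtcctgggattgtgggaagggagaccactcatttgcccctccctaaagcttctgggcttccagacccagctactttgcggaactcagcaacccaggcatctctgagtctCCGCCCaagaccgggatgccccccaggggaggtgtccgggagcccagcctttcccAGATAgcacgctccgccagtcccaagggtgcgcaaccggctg
FLT3LG, plus strand, chr19:49474336-49474635: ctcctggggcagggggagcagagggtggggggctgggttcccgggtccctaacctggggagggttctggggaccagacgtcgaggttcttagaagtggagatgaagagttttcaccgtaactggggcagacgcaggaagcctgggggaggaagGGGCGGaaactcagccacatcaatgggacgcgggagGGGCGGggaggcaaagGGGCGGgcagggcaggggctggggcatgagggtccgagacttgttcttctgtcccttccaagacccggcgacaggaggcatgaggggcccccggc
KITLG, minus strand, chr12:88580422-88580721: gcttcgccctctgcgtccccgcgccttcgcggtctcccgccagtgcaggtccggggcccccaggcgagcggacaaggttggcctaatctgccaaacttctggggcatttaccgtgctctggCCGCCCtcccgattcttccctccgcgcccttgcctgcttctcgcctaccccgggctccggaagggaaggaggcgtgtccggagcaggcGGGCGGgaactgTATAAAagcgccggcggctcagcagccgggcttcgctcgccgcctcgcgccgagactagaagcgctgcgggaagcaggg

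The THPO window was 76.7% G and C and held 2 GC boxes, the FLT3LG window was 66.3% and held 3, and the KITLG window was 69.7% and held 2 together with a TATA box 29 bases before the start. The EPO window was 57.7% G and C and held 1 GC box and 1 GATA core. The printed THPO and FLT3LG windows were picked for their GC boxes: the other THPO windows were 59.3% G and C with 0 GC boxes, and the other FLT3LG window was 67% with 0. For comparison, over 35116 windows of the same length the median content of G and C was 58.7%, and the GC box was found in 45% of them, the GATA core in 24.6%, the hypoxia-response core in 21.4% and the TATA box in 11.5%. A match is a description of the letters and is not a bound site.

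THPO (chr3:184371935-184381968, minus strand, GRCh38 as in GENCODE v29) had the largest difference from Non-target of the 10 on the scale of log2(FPKM + 0.1), in MAGI2-CKO, while by fragment rates over all libraries ANGPT1 and FLT3LG in C9orf89-CKO differed by more. In Non-target it was at 0.161, 0.0478 and 0.0211 FPKM, from 7, 2 and 1 fragments. The MAGI2-CKO wells were at 1.58, 1.35 and 1.36 FPKM (83, 71 and 72 fragments) and the MLPH-CKO wells at 1.19, 0.530 and 0.807 (59, 27 and 40). RHBDD2-CKO was at 0.366, 0.262 and 0.273 FPKM (18, 12 and 12 fragments). These 3 clones were ordered without overlap of wells, MAGI2-CKO above MLPH-CKO above RHBDD2-CKO, and each lay above every Non-target well. C9orf89-CKO, at 0.246, 0.226 and 0.0444 FPKM (11, 11 and 2 fragments), lay below every RHBDD2-CKO well and overlapped Non-target.

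On the scale of log2(FPKM + 0.1), which understates differences of genes near 0, THPO was higher than in Non-target by 3.19 (SE 0.34 from the wells) in MAGI2-CKO, 2.44 (SE 0.45) in MLPH-CKO and 1.25 (SE 0.35) in RHBDD2-CKO, against 0.60 (SE 0.53) in C9orf89-CKO. The fragment rate per library was 19.4 times that of Non-target in MAGI2-CKO (exact 95% interval 10.3 to 41.0, counting error only), 11.4 times in MLPH-CKO (6.01 to 24.4) and 4.19 times in RHBDD2-CKO (2.07 to 9.37). Without the replicate 1 libraries the log2 differences were 3.45, 2.50 and 1.46. All of these ratios rest on 10 fragments over the 3 Non-target wells, 7 of them from Non-target 1. Without that library the rate ratios were 9.40 in RHBDD2-CKO (3.00 to 47.4), 43.5 in MAGI2-CKO (14.7 to 212) and 25.6 in MLPH-CKO (8.57 to 126), and the log2 differences 1.57, 3.52 and 2.76. For C9orf89-CKO the rate ratio was 2.36 (1.09 to 5.52), and 5.28 (1.60 to 27.4) without Non-target 1. Its log2 difference was 0.37 to 1.01 with 1 library left out. In bulk RNA, more cells with a transcript and more of it per cell cannot be told apart. Even at its highest, THPO stayed at a low level, below 2 FPKM.

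A part of THPO cannot be told apart from its neighbour. Of its 2705 exon bases, 361 (13.3%) are also exon of CHRD, the gene of the BMP antagonist chordin, on the opposite strand, and the counting is not stated to use strand. CHRD was at 0.680 ± 0.246 FPKM in Non-target and 1.55 ± 0.129 in MAGI2-CKO, where it rose by 1.13 on the log2 scale (SE 0.25, adjusted p 0.00351), and it rose by 0.73 in MLPH-CKO (adjusted p 0.0429). In C9orf89-CKO (-0.15, adjusted p 0.707) and RHBDD2-CKO (0.59, adjusted p 0.0875) it did not pass the test. The share of shared bases in the THPO values was not tested.

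EPO (chr7:100720800-100723700, plus strand) was at 0, 0.243 and 0 FPKM in the Non-target wells, that is 0, 5 and 0 fragments. The C9orf89-CKO wells were at 0.546, 0.459 and 0.677 FPKM (12, 11 and 15 fragments), and the MAGI2-CKO wells at 0.271, 0.582 and 0.308 (7, 15 and 8). Both clones lay above every Non-target well. In MLPH-CKO it was at 0.741, 0.239 and 0.287 FPKM (18, 6 and 7 fragments), with the middle well just under the highest Non-target well, and RHBDD2-CKO, at 0.0828, 0.0444 and 0.0924 (2, 1 and 2), was within the range of Non-target. The wells of C9orf89-CKO, MLPH-CKO and MAGI2-CKO overlapped each other, so no order among them can be read.

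The log2 difference of EPO from Non-target was 2.12 (SE 0.61) in C9orf89-CKO, 1.64 (SE 0.65) in MAGI2-CKO and 1.67 (SE 0.72) in MLPH-CKO. The fragment rates were 7.46 times (2.93 to 24.3), 5.15 times (1.98 to 17.0) and 5.62 times (2.17 to 18.5) that of Non-target. All 5 Non-target fragments of EPO came from Non-target 2: without it the control is at 0, and the log2 differences were 2.71 in C9orf89-CKO, 2.26 in MLPH-CKO, 0.78 in RHBDD2-CKO and 2.23 in MAGI2-CKO. Without Non-target 3 the rate ratios were 4.81 in C9orf89-CKO, 3.63 in MLPH-CKO and 3.32 in MAGI2-CKO, and without MLPH-CKO 1 that of MLPH-CKO was 3.57. In RHBDD2-CKO the rate ratio was 0.998 (0.230 to 4.34), and 0.644 (0.148 to 2.80) without Non-target 3. Without the replicate 1 libraries the MLPH-CKO difference was 0.97. EPO overlaps no other annotated exon.

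FLT3LG (chr19:49474207-49486231, plus strand), whose product expands dendritic and lymphoid progenitors, had 1 fragment in the 3 Non-target wells together (0.0219, 0 and 0 FPKM). It was at 0.298, 0.176 and 0.0633 FPKM in C9orf89-CKO, 0.217, 0.0906 and 0.0540 in MAGI2-CKO and 0.0577, 0.0932 and 0.0958 in MLPH-CKO. Every one of these 9 wells lay above Non-target, and the 3 clones overlapped each other. In RHBDD2-CKO 2 wells were at 0 and the other at 0.130 FPKM. The fragment rates were 11.8 times (1.77 to 501) that of Non-target in MLPH-CKO, 17.2 times (2.74 to 711) in MAGI2-CKO and 25.5 times (4.19 to 1047) in C9orf89-CKO, ratios that rest on that single fragment, which came from Non-target 1. Without Non-target 3 they were 7.60, 11.1 and 16.5, and without MAGI2-CKO 1 that of MAGI2-CKO was 10.3. Of the FLT3LG exon, 800 of 2846 bases (28.1%) are shared with AC010619.2, an unnamed transcript on the same strand that was itself at 0 to 8 fragments per library, and 338 (11.9%) with AC010619.1, at 0 in all libraries.

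IL11 (chr19:55364389-55370463, minus strand), a gp130 cytokine that stromal cells make, had 3 fragments in each Non-target well (0.0700, 0.0725 and 0.0640 FPKM). In C9orf89-CKO it was at 0.295, 0.187 and 0.359 FPKM, in MLPH-CKO at 0.226, 0.238 and 0.204 and in MAGI2-CKO at 0.154, 0.154 and 0.153. All 9 wells lay above Non-target, and the MAGI2-CKO wells lay below those of C9orf89-CKO and MLPH-CKO, which overlapped. The RHBDD2-CKO wells spread from 0.0221 to 0.184 FPKM, across the Non-target values. The log2 differences were 1.15 (SE 0.20), 0.93 (SE 0.050) and 0.59 (SE 0.022) in C9orf89-CKO, MLPH-CKO and MAGI2-CKO. The fragment rate in MAGI2-CKO was 2.29 times that of Non-target, with a counting interval of 1.03 to 5.59, and each of its 3 wells held 8 fragments.

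KITLG (chr12:88492793-88580851, minus strand) was the most abundant member and made up 59.0% of the summed FPKM of the 10 genes in Non-target. It was at 5.31, 5.44 and 5.96 FPKM in Non-target, 4.14, 4.91 and 4.52 in C9orf89-CKO and 4.26, 3.17 and 3.39 in MAGI2-CKO. Both clones lay below every Non-target well and overlapped each other. MLPH-CKO, at 5.42, 5.41 and 5.89 FPKM, and RHBDD2-CKO, at 5.77, 5.89 and 5.69, overlapped Non-target. With 1305 to 1916 fragments per group, KITLG had the tightest intervals of the 10. Its fragment rate was 0.658 of that of Non-target in MAGI2-CKO (0.612 to 0.708) and 0.831 in C9orf89-CKO (0.774 to 0.892), against 1.08 in RHBDD2-CKO (1.01 to 1.16) and 1.02 in MLPH-CKO (0.956 to 1.09).

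CSF1 (chr1:109910242-109930992, plus strand), which supports monocytes and macrophages, was at 1.32, 2.19 and 1.97 FPKM in Non-target. Its wells lay between 1.29 and 1.54 in C9orf89-CKO, 1.48 and 1.75 in MAGI2-CKO, 1.03 and 1.51 in MLPH-CKO and 1.29 and 1.69 in RHBDD2-CKO. All 4 clones overlapped the range of Non-target, whose first well was its lowest. The log2 difference ran from -0.52 (SE 0.26) in MLPH-CKO to -0.13 (SE 0.22) in MAGI2-CKO, and the latter was -0.33 without Non-target 1, 0.0097 without Non-target 2 and -0.27 without the replicate 1 libraries.

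LIF and CLCF1, both cytokines that signal through gp130 with the LIF receptor, were low in all groups. LIF (chr22:30240447-30246851, minus strand) was at 0.345, 0.374 and 0.359 FPKM in Non-target. The values were 0.137, 0.182 and 0.242 in C9orf89-CKO and 0.0389, 0.156 and 0.168 in MAGI2-CKO, all below Non-target, with log2 differences of -0.69 (SE 0.15) and -1.12 (SE 0.31). MLPH-CKO (0.179 to 0.385) and RHBDD2-CKO (0.139 to 0.511) overlapped Non-target. The replicate 1 well was the lowest in all 5 groups.

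CLCF1 (chr11:67364168-67374177, minus strand) was at 0.189, 0.294 and 0.260 FPKM in Non-target, from 6 to 9 fragments. C9orf89-CKO (0.0920, 0.169 and 0.0608), MAGI2-CKO (0.104, 0.104 and 0.182) and MLPH-CKO (0.0832, 0.107 and 0.110) lay below every Non-target well and overlapped each other. RHBDD2-CKO, at 0.223, 0.329 and 0.311 FPKM, overlapped Non-target. The rate ratio to Non-target was 0.536 in MAGI2-CKO (counting interval 0.262 to 1.06), with intervals of 0.184 to 0.881 in MLPH-CKO and 0.199 to 0.954 in C9orf89-CKO. RAD9A, a checkpoint gene annotated across CLCF1 without a shared exon base, rose in RHBDD2-CKO (log2 fold change 0.34, adjusted p 0.00706) and fell in MLPH-CKO (-0.25, adjusted p 0.0370).

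JAG1 (chr20:10637684-10673999, minus strand) was at 0.784, 0.875 and 0.901 FPKM in Non-target. It was at 0.421, 0.449 and 0.457 in MAGI2-CKO, 0.612, 0.663 and 0.613 in C9orf89-CKO and 0.636, 0.565 and 0.616 in MLPH-CKO. The MAGI2-CKO wells lay below those of every other group, and C9orf89-CKO and MLPH-CKO overlapped each other below Non-target. RHBDD2-CKO, at 0.687, 0.679 and 0.853 FPKM, overlapped Non-target. The fragment rate was 0.528 of that of Non-target in MAGI2-CKO (0.448 to 0.622), 0.755 in C9orf89-CKO (0.648 to 0.880) and 0.725 in MLPH-CKO (0.623 to 0.844).

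ANGPT1 was the only member whose wells lay below every Non-target well in all 4 clones. The means of JAG1, LIF and CSF1 were also lower in all 4, but not without overlap of wells. Its Non-target wells were at 0.332, 0.399 and 0.408 FPKM, from 38, 44 and 51 fragments. In C9orf89-CKO it was at 0.0255, 0.00779 and 0 FPKM (3, 1 and 0 fragments) and in MLPH-CKO at 0.0384, 0 and 0.0230 (5, 0 and 3). The MAGI2-CKO wells were at 0.0939, 0.109 and 0.0719 FPKM (13, 15 and 10 fragments) and the RHBDD2-CKO wells at 0.124, 0.0331 and 0.0431 (16, 4 and 5). All 12 clone wells lay below the lowest Non-target well, and the nearest to it was RHBDD2-CKO 1 at 0.124 FPKM.

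The fragment rate of ANGPT1 was 0.0295 of that of Non-target in C9orf89-CKO (0.00793 to 0.0774), 0.0545 in MLPH-CKO (0.0231 to 0.111), 0.188 in RHBDD2-CKO (0.117 to 0.289) and 0.245 in MAGI2-CKO (0.166 to 0.354). It was 0.0109 without C9orf89-CKO 1, 0.0310 without MLPH-CKO 1, 0.0823 without MLPH-CKO 2 and 0.106 without RHBDD2-CKO 1. Without the replicate 1 libraries the log2 difference of ANGPT1 was -2.28 in C9orf89-CKO, where it was -2.11 with them, and -1.87 in RHBDD2-CKO, where it was -1.56. That of FLT3LG in MLPH-CKO was 0.96 in place of 0.76. These were the 3 values that moved by more than the spread between wells.

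Counted over the 10 genes, 3 lay above and 5 below every Non-target well in C9orf89-CKO, 4 above and 5 below in MAGI2-CKO, 3 above and 3 below in MLPH-CKO, and 1 above (THPO) and 1 below (ANGPT1) in RHBDD2-CKO. Among all 32715 genes with any fragment, the shares above and below were 11.9% and 12.4% in C9orf89-CKO, 14.5% and 14.4% in MAGI2-CKO, 12.5% and 12.8% in MLPH-CKO, and 13.8% and 13% in RHBDD2-CKO. The median log2 difference of the 10 was -0.30, -0.37, -0.16 and 0.093 in the same order, beside medians of -0.0063 to 0.00038 over all genes tested. Since the members were chosen with these levels known, nothing is read from these counts. The summed FPKM of the 10 was 8.12 ± 0.444 in MAGI2-CKO, 8.08 ± 0.210 in C9orf89-CKO, 9.24 ± 0.448 in RHBDD2-CKO, 9.38 ± 0.685 in MLPH-CKO and 9.47 ± 0.811 in Non-target, and KITLG made up 44.3% of it in MAGI2-CKO and 62.6% in RHBDD2-CKO. CXCL12, the chemokine that holds stem cells in the marrow, was at 3.14 ± 0.0826 FPKM in RHBDD2-CKO, 0.993 ± 0.184 in MAGI2-CKO, 0.686 ± 0.0703 in C9orf89-CKO, 0.232 ± 0.0192 in MLPH-CKO and 0.0135 ± 0.00609 in Non-target, an order of group means that none of the 10 genes had.

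Genes close to a member on the chromosome were set beside it. Over the 20 nearest tested genes, the median log2 fold change lay between -0.31 and 0.23 around the 9 members other than JAG1. Around THPO it was -0.084 in C9orf89-CKO, 0.048 in MLPH-CKO, 0.087 in RHBDD2-CKO and 0.11 in MAGI2-CKO, and around ANGPT1 it was -0.16 to -0.0066. The 20 genes around JAG1, over 4849 kb, had medians of -0.41 in MAGI2-CKO, -0.29 in MLPH-CKO, -0.36 in C9orf89-CKO and 0.0067 in RHBDD2-CKO, with 10, 10, 11 and 5 of them past the threshold as lower and 0 as higher in each. The JAG1 differences of -0.81, -0.43, -0.38 and -0.19 in the same order stand beside these. Around EPO the median was -0.31 in MAGI2-CKO, with 11 of 20 lower and 0 higher, while EPO itself was above Non-target there.

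Other genes followed the members across the 15 libraries, given as Pearson correlations of log2(FPKM + 0.1), which share libraries and the 5 group levels and carry no p. The 3 tested genes most like THPO were DPP8 (a dipeptidyl peptidase, r = 0.960), TP53BP1 (a DNA repair factor, 0.937) and HERC1 (a ubiquitin ligase, 0.930), all 3 on chromosome 15. DPP8 had mean levels of 4.42 FPKM in Non-target, 4.85 in C9orf89-CKO, 5.03 in RHBDD2-CKO, 5.82 in MLPH-CKO and 6.05 in MAGI2-CKO, the order of group means that THPO had. Most like EPO were FLJ37453 on chromosome 1 (0.926) and, on chromosome 10, the cell cycle kinase CDK1 (0.909) and the homeobox gene HMX2 (0.908). HMX2 was at 0.154 FPKM in Non-target and 0.317 in RHBDD2-CKO but at 1.85 in MAGI2-CKO, 2.46 in C9orf89-CKO and 2.48 in MLPH-CKO. KITLG was followed by GPRC5A (0.955), the guidance factor SEMA3A (0.935) and RETREG1 (0.931), JAG1 by the kinase gene RPS6KA2 (0.959), AC008555.5 (0.954) and the histone demethylase KDM4C (0.95), and CSF1 by the cardiac factor NKX2-5 (0.888) and ING5 (0.870).

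The genes around the members in their pathways were tested, 85 genes in 6 lists, of which 63 passed the filter. Of these 63, 26 passed the threshold in RHBDD2-CKO (14 rose and 12 fell), 23 in MLPH-CKO (13 and 10), 22 in MAGI2-CKO (11 and 11) and 21 in C9orf89-CKO (12 and 9). Among all 16175 tested genes the shares were 34.1%, 30.1%, 36.1% and 26% in the same order, and the counts by list below stand beside the same shares.

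Receptors came first. CSF1R, the CSF1 receptor, had 1 to 6 fragments per group, and TEK and TIE1, receptors of the angiopoietin system, 0 to 2, so the cells had almost no transcript of the receptors for CSF1 and ANGPT1. NOTCH4 was at 0.0457 to 0.107 FPKM. Of the 15 receptor genes on the list, 10 were tested: 3 rose and 3 fell in C9orf89-CKO, 0 and 3 in MAGI2-CKO, 2 and 3 in MLPH-CKO, and 2 and 3 in RHBDD2-CKO, with medians of 0.033, -0.26, -0.043 and -0.036.

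EPOR was at 3.85 ± 0.525 FPKM in Non-target and did not pass the test in any clone (log2 fold change -0.33 to 0.19, adjusted p 0.103 to 0.636). With the replicate number as a block it passed in RHBDD2-CKO (0.0481). KIT, the KITLG receptor, rose from 3.30 ± 0.412 FPKM to 4.79 ± 0.748 in C9orf89-CKO (0.52, adjusted p 0.00461, or 0.0511 with only the 6 libraries compared), 4.65 ± 0.431 in MLPH-CKO (0.48, 0.00599) and 5.54 ± 0.281 in RHBDD2-CKO (0.73, 0.000321). In MAGI2-CKO, KIT was at 2.73 ± 0.0756 FPKM (-0.26, 0.0951), below each of the other 3 clones in direct tests (adjusted p 1.63e-05 to 0.000457). FLT3, the receptor of FLT3LG, was low, 0.172 ± 0.10 FPKM in Non-target, and rose in C9orf89-CKO (1.55, 0.00108) and MLPH-CKO (1.26, 0.00343, or 0.0566 without the replicate 1 libraries). Its values of 0.70 in MAGI2-CKO (0.0600) and 0.68 in RHBDD2-CKO (0.0695) did not pass, but both did without Non-target 3 (0.0112 and 0.0140), with a pseudocount of 0.01, without the trend and with voom (0.0302 to 0.0493), and that of RHBDD2-CKO did without RHBDD2-CKO 3 (0.0417).

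Of the gp130 receptors, LIFR fell in MAGI2-CKO from 3.43 ± 0.304 to 2.16 ± 0.233 FPKM (-0.65, adjusted p 0.000189) and in C9orf89-CKO (-0.33, 0.0214), the clones in which LIF was below Non-target. The latter call was lost without Non-target 1 (0.0763) or 3 (0.0595), C9orf89-CKO 1 (0.0567) or 2 (0.0601), or the replicate 1 libraries (0.0884). IL6ST rose in RHBDD2-CKO (0.29, 0.0115), which was lost without Non-target 2 (0.0539) or RHBDD2-CKO 3 (0.0506) and with only the 6 libraries compared (0.0534). Its values of 0.18 in C9orf89-CKO (0.115) and -0.16 in MAGI2-CKO (0.122) passed only without the replicate 1 libraries (0.0472) and without Non-target 2 (0.0381), respectively. CNTFR, through which CLCF1 signals, fell in RHBDD2-CKO (-0.65, 0.00497) and rose in C9orf89-CKO (0.52, 0.0210), the latter lost without Non-target 1 (0.0690) or 2 (0.0897), C9orf89-CKO 2 (0.0675) or 3 (0.0741) and with the 6 libraries (0.0719). IL11RA did not pass in any clone, its largest value being 0.48 in MAGI2-CKO (0.0591, or 0.0469 with the 6 libraries and 0.0414 with voom).

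NOTCH1 went from 4.97 ± 0.423 FPKM in Non-target to 2.75 ± 0.435 in MLPH-CKO (-0.84, adjusted p 0.00389), 2.81 ± 0.591 in MAGI2-CKO (-0.82, 0.00356), 2.78 ± 0.173 in C9orf89-CKO (-0.81, 0.00569) and 3.53 ± 0.798 in RHBDD2-CKO (-0.50, 0.0492). The call in RHBDD2-CKO was lost without Non-target 1, 2 or 3 (0.0549, 0.115 and 0.138) or RHBDD2-CKO 1 (0.190), and in 5 other settings (0.0526 to 0.0946). NOTCH2 fell in MAGI2-CKO (-0.42, 0.00178) and MLPH-CKO (-0.45, 0.00140). NOTCH3 fell in C9orf89-CKO (-0.81, 0.00656), RHBDD2-CKO (-0.91, 0.00237) and MLPH-CKO (-0.57, 0.0367), and this last call was lost without Non-target 2 (0.114) or 3 (0.111), MLPH-CKO 1 (0.140) or 2 (0.0600), with no filter on low values (0.0676) and with the 6 libraries (0.0741). Its value of -0.46 in MAGI2-CKO (0.0730) did not pass, but it did without Non-target 1 (0.0458) and without the replicate 1 libraries (0.00247). A block on the replicate number gave 0.000758 there.

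Of 8 tested partners and processing genes, 0 passed in C9orf89-CKO, 1 rose and 1 fell in MAGI2-CKO and in MLPH-CKO, and 1 rose and 0 fell in RHBDD2-CKO. ADAM10, a protease that cuts Notch receptors and sheds membrane ligands, was the one that rose, in MAGI2-CKO (0.42, adjusted p 0.00103), MLPH-CKO (0.52, 0.000322) and RHBDD2-CKO (0.36, 0.00343). LFNG, a modifier of Notch, did not pass in any clone (-0.70 to -0.13, adjusted p 0.111 to 0.811), but without MAGI2-CKO 3 it fell in that clone (0.0255).

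In the JAK-STAT list, 3 of 16 tested genes rose and 3 fell in C9orf89-CKO, 2 and 3 in MAGI2-CKO, 3 and 3 in MLPH-CKO, and 4 and 2 in RHBDD2-CKO. JAK2, the kinase that relays EPO signals, fell in all 4 clones, from 1.41 ± 0.0800 FPKM to 0.749 ± 0.0434, 0.809 ± 0.0766, 0.768 ± 0.0586 and 0.884 ± 0.168 (-0.83 to -0.63, largest adjusted p 0.00412). SOCS2, a feedback inhibitor, fell in MAGI2-CKO (-0.82, 0.000185), C9orf89-CKO (-0.46, 0.0138) and MLPH-CKO (-0.37, 0.0362). The SOCS2 call in C9orf89-CKO was lost without Non-target 2 (0.0535) or 3 (0.0620) or C9orf89-CKO 1 (0.0570) and with the 6 libraries (0.0839). That in MLPH-CKO was lost without Non-target 2 (0.113) or 3 (0.133) or MLPH-CKO 1 (0.0912) or 3 (0.110), with no filter (0.0652) and with the 6 libraries (0.0984). In RHBDD2-CKO, SOCS2 did not pass (-0.31, 0.0637), but it did without Non-target 1 (0.0191) and without the replicate 1 libraries (0.0128). A block on the replicate number gave 0.0229 there. PTPN6, a phosphatase that dampens EPOR and KIT signals, rose from 0.230 ± 0.0615 FPKM to 2.23 ± 0.0289 in MLPH-CKO (2.84, adjusted p 1.52e-06), 1.70 ± 0.210 in C9orf89-CKO (2.45, 6.20e-06) and 0.777 ± 0.0504 in RHBDD2-CKO (1.43, 0.000365), against 0.298 ± 0.146 in MAGI2-CKO (0.23, 0.473). MAGI2-CKO was below each of the other 3 clones in direct tests (largest adjusted p 0.000825).

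Among the genes that control EPO, EPAS1 (HIF-2 alpha), the oxygen-regulated activator of EPO, fell in MAGI2-CKO from 6.73 ± 0.482 to 2.76 ± 0.227 FPKM (-1.26, adjusted p 1.61e-07) and in RHBDD2-CKO (-0.32, 0.00735). It rose in MLPH-CKO (0.29, 0.0150), a call lost without Non-target 1 (0.0618) or MLPH-CKO 2 (0.0531). MAGI2-CKO had the lowest EPAS1 of the clones (largest adjusted p in direct tests 1.31e-06), and its EPO wells lay above Non-target. GATA3, a GATA factor on this list, fell in all 4 clones, from 6.30 ± 0.402 FPKM to 4.29, 4.20, 4.72 and 3.31 (-0.91 to -0.41, largest adjusted p 0.00712). Whether EPAS1 or GATA3 bears on the EPO levels was not tested. EGLN2, an oxygen sensor, did not pass in any clone (adjusted p 0.0539 to 0.969). Its value of 0.78 in MAGI2-CKO (0.0539) passed without Non-target 1 (0.0184), without the replicate 1 libraries (0.0179) and in 3 other settings (0.0265 to 0.0493), and its 0.62 in C9orf89-CKO (0.142) passed without Non-target 1 (0.0490) or C9orf89-CKO 2 (0.0455). In the whole list of 10 tested genes, 2 rose and 1 fell in C9orf89-CKO, 2 and 3 in MAGI2-CKO, 2 and 1 in MLPH-CKO, and 2 and 3 in RHBDD2-CKO.

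Of 9 tested nuclear factors and targets of Notch, 1 rose and 1 fell in C9orf89-CKO, 3 and 1 in MAGI2-CKO, 1 and 1 in MLPH-CKO, and 2 and 3 in RHBDD2-CKO. HES4, a Notch target, rose in MAGI2-CKO (0.96, adjusted p 0.00266), the clone with the lowest JAG1. Its 0.55 in MLPH-CKO (0.0584) passed without Non-target 2 (0.0354), MLPH-CKO 1 (0.0328) or the replicate 1 libraries (0.0130) and with voom (0.0354). A block on the replicate number gave 0.00221 there. HES5, at 0.149 ± 0.18 FPKM in Non-target, rose in MLPH-CKO (1.63, 0.0266) and RHBDD2-CKO (1.76, 0.0166). In MLPH-CKO this was lost without Non-target 1 (0.102) or 2 (0.0648), MLPH-CKO 2 (0.103) or the replicate 1 libraries (0.142), with quantile normalization (0.0555) and with the 6 libraries (0.101), and in RHBDD2-CKO without Non-target 1 (0.0615), RHBDD2-CKO 2 (0.0584) or 3 (0.0509) or the replicate 1 libraries (0.0798) and with the 6 libraries (0.0726). HES5 in MAGI2-CKO (1.29, 0.0628) passed without Non-target 3 (0.00986) and with voom (0.0472). NRARP, a feedback target, did not pass in any clone (-0.73 to -0.34, adjusted p 0.137 to 0.478), and its replicate 1 well was the lowest in every group, at 22.9 FPKM against 47.8 and 40.4 in Non-target. Without the replicate 1 libraries NRARP fell in MAGI2-CKO (0.0350), MLPH-CKO (0.0445) and C9orf89-CKO (0.00294), and without Non-target 1 it fell in C9orf89-CKO (0.0422). With the replicate number as a block NRARP fell in every clone (0.000777 to 0.0388).

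Other growth factors and niche ligands were 22 genes, of which 10 were tested. Of these, 4 rose and 1 fell in MLPH-CKO, 3 and 1 in C9orf89-CKO and in RHBDD2-CKO, and 3 and 0 in MAGI2-CKO. JAG2, the paralogue of JAG1, was at 8.32 ± 1.14 FPKM in Non-target and rose in all 4 clones, to 12.7 ± 1.11 (0.61, adjusted p 0.0335), 14.7 ± 2.25 (0.81, 0.00544), 13.6 ± 3.08 (0.69, 0.0165) and 14.6 ± 3.20 (0.79, 0.00716), the clones in which the mean of JAG1 lay below Non-target. In C9orf89-CKO the call was lost without Non-target 1 (0.111) or 2 (0.0556) or C9orf89-CKO 2 (0.0882) or 3 (0.0960) and with no filter (0.0620). In MLPH-CKO it was lost without Non-target 1 (0.0659) or MLPH-CKO 2 (0.0533) or 3 (0.0756) and with the 6 libraries (0.0533).

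DLL4, another Notch ligand, rose in MLPH-CKO from 0.360 ± 0.0867 to 1.17 ± 0.328 FPKM (1.45, adjusted p 0.000287), in C9orf89-CKO (0.82, 0.0138, or 0.0558 without Non-target 2) and in RHBDD2-CKO (0.69, 0.0253). The RHBDD2-CKO call was lost without Non-target 1 (0.0575) or 2 (0.0963) or RHBDD2-CKO 2 (0.0802) or 3 (0.0845) and in 4 other settings (0.0523 to 0.0700). PTN, the heparin-binding factor pleiotrophin made in the marrow niche, rose in MAGI2-CKO from 0.644 ± 0.0461 to 2.84 ± 0.684 FPKM (1.96, 1.38e-05). It had 0 fragments in every well of MLPH-CKO and RHBDD2-CKO against 54 in Non-target, at least 19.85-fold and 18.0-fold lower at a floor of 3 fragments over the group (adjusted p 7.07e-07 and 7.24e-07).

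**Figure D2:**
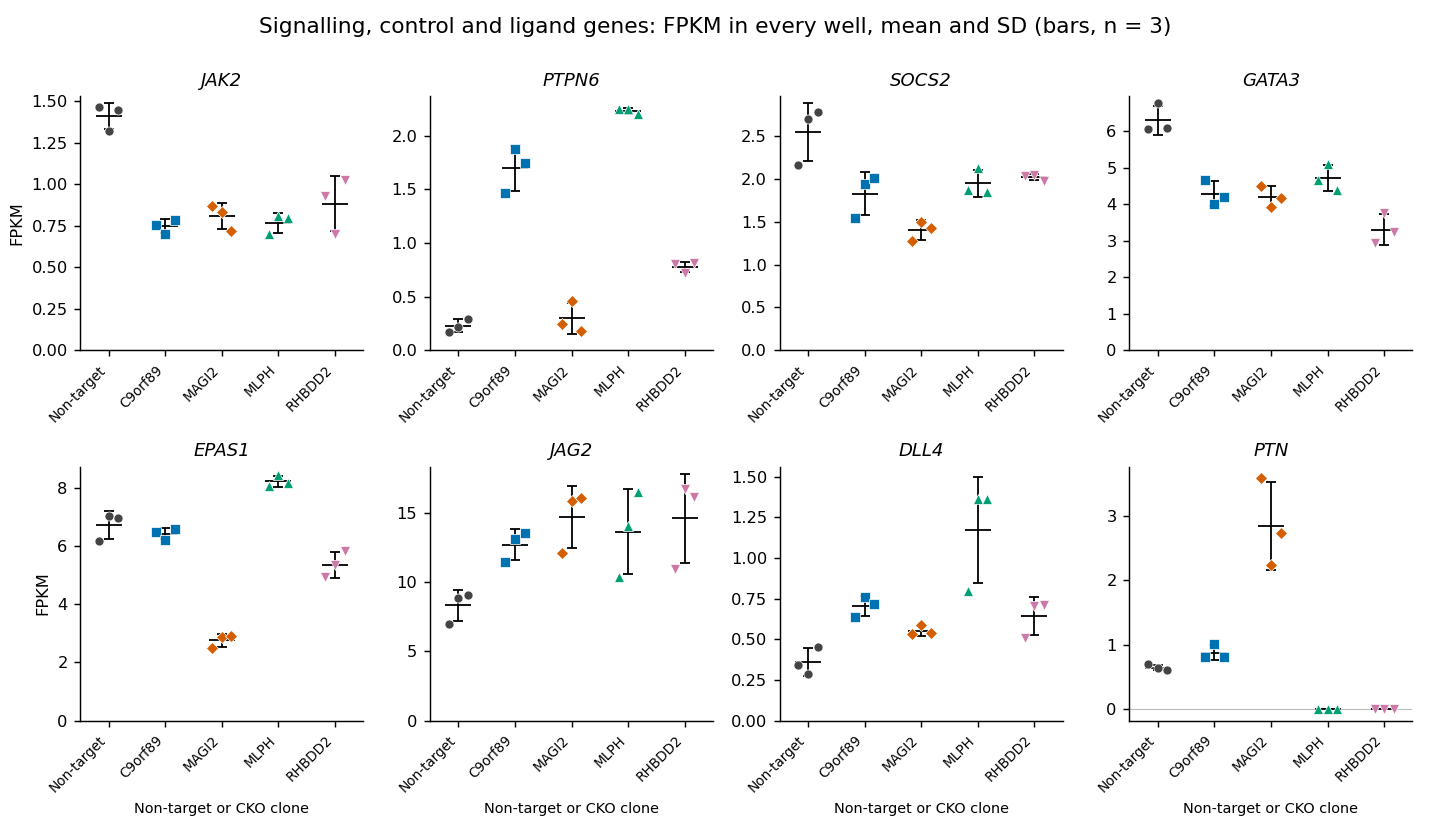
FPKM in every well of 8 genes of the pathways around the growth factors, with the mean and SD (bars, n = 3); each panel has its own axis from 0 or just below. JAK2 and GATA3 were lower than Non-target in all 4 clones, PTPN6 was high in C9orf89-CKO and MLPH-CKO, and PTN was at 0 in every well of MLPH-CKO and RHBDD2-CKO.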

How the data were processed

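RNA from 3 wells of each of the 5 HEK293T clones was purified on RNeasy columns with DNase I, and libraries were made with the NEBNext Ultra RNA kit, which as named does not mark strand. The submitters' processing notes name HISAT2 2.0.5, featureCounts 1.5.0-p3 and DESeq2, without a role. The authors deposited 1 table per library with 58735 genes, whose values are FPKM (fragments counted per gene, divided by exon length and library scale). This unit is not named and was read from the values. Once scaled by GENCODE v29 exon lengths, these became whole fragment numbers for every gene, to within 0.02. The build is not given in the sources used here. The recovered fragments gave depth (262601551 in all, median 17666063 per library) and rate ratios with exact binomial intervals (95%), which cover counting error only.

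A gene was tested if 3 or more libraries had 0.5 FPKM or more (16175 genes). limma 3.58.1 (R 4.3.3, eBayes with trend) was fitted to log2(FPKM + 0.1), with 15 libraries and 5 groups in 1 model and Benjamini-Hochberg adjustment per contrast at 0.05. The p-values measure only the spread between wells of 1 clone per group. The members and the lists were chosen with earlier results of these data known, so members carry no test. The genes named are the members, the tested receptors, the 3 tested genes of each other list with the largest mean absolute log2 fold change over the 4 clones, the 3 genes most correlated with each tested member, tested genes that overlap a member, the targeted genes and CXCL12, and beside these the leading or absent markers of each cell type list. Some genes that this rule picks are not reported here. Alternatives were pseudocounts of 1 and 0.01, no filter, a mean of at least 1 FPKM, quantile normalization, no trend, only the 6 libraries compared, the replicate number as a block, each library left out, and voom on recovered fragments. Replicates 2 and 3 only was added after seeing the data. Other steps used Python 3.11.15 (numpy 2.4.6, scipy 1.17.1, pandas 2.3.3, matplotlib 3.10.9).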

Additional observations from a re-analysis of the deposited data

How the results depend on the processing

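Of 508 values of the 10 growth factor genes under the alternatives, 446 moved by less than the spread between wells, 62 moved by more and 0 changed direction where the wells had not overlapped. No filter (40 values), no trend (20) and a mean of at least 1 FPKM (8) cannot move a difference of group means. Nor can the replicate block (20) or only the 6 libraries compared (20). These values count among the 446 and say nothing about stability. The pseudocount moved the most: 24 of its 40 values at 1 and 23 of 40 at 0.01 moved by more than the spread, so the size of the log2 differences of these low genes depends on it. Of the 240 values with 1 library left out, 0 did, but leaving out 1 of 3 wells cannot move a mean that far. The fragment rate ratios without 1 library were chosen after seeing the data. The counts of pathway genes past the threshold (26 in RHBDD2-CKO, 23 in MLPH-CKO, 22 in MAGI2-CKO and 21 in C9orf89-CKO) were, in this order, 20 to 24, 19 to 24, 21 to 24 and 17 to 20 with 1 library left out, 21, 16, 21 and 15 with only the 6 libraries compared, and 28, 25, 27 and 25 without the replicate 1 libraries. Of 52 calls of named pathway genes, 36 held under every alternative run and 16 were lost under at least 1, with 0 changes of sign. Depth limits FLT3LG, IL11, CLCF1, EPO and THPO, with 1 to 24 fragments over the 3 Non-target wells.

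No label ties wells of the same replicate number, and not every pair of them passed the correlation of 0.1 set for pairing, though all 30 were positive: the correlation of deviations from the group means between wells of the same number had a median of 0.0856 (0.00103 to 0.312 over 30 pairs) against -0.0887 for different numbers, with 12 of 15 libraries closest on average to their own number. A block on that number gave counts of 33, 31, 34 and 26 in the same order, of which the 34 in MAGI2-CKO was more than 1.5 times the count without the block. Over all 16175 tested genes the block raised the calls from 5511 to 7036, 4865 to 6292, 5835 to 7169 and 4210 to 5718. With that block NRARP passed in all 4 clones (adjusted p 0.000777 to 0.0388), as did NOTCH3 (0.000758) and DLL4 (0.0496) in MAGI2-CKO, HES4 in MLPH-CKO (0.00221), and SOCS2 (0.0229) and EPOR (0.0481) in RHBDD2-CKO, none of which passed in the test as reported, without the block. Without the block, NRARP, NOTCH3, HES4 and SOCS2 passed in some of these clones under other alternatives, such as NRARP in C9orf89-CKO without the replicate 1 libraries (0.00294) and HES4 in MLPH-CKO with voom (0.0354).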
